A study of Danio rerio with 18 samples.

Results

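The change in polysome association of mRNA between the 128-cell stage and 3.5 hours post fertilization (hpf) was measured for 13842 of the 27015 genes in the series' gene table. These were the genes with at least 100 normalized counts in the unfractionated library of both stages, so their mRNA was present before genome activation. Eggs and embryos of the wild-type (AB) strain, pooled by stage and untreated, were collected at 6 stages, which run over egg, 1-cell, 16-cell, 128-cell, 3.5 hpf and then 5.3 hpf. Lysates were separated into bound and unbound mRNA, an unfractionated RNA was kept beside them, and each stage has a single library of each of these 3 kinds, depleted of ribosomal RNA. The groups compared here are the bound and unbound fractions of 3.5 hpf embryos and the bound and unbound fractions of 128-cell embryos. Because the embryos were pooled whole, fewer cells of a type and less RNA per cell cannot be told apart.

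Before its own genome becomes active, a fish embryo lives on mRNA that the mother stored in the egg, and proteins are made or withheld by moving these mRNAs onto or off ribosomes. Several ribosomes on 1 mRNA form a polysome, which sediments faster than free mRNA. The bound over unbound ratio of an mRNA is therefore read here as how much of it is engaged, though the bound fraction can hold other mRNA too. The 128-cell embryo divides rapidly and is almost silent in transcription, and by 3.5 hpf the divisions have slowed and the zygotic genome is being read. The comparison asks which mRNAs already present before activation changed in engagement after it, apart from any change in their amount.

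For each gene the shift is the log2 bound over unbound ratio at 3.5 hpf minus that at 128-cell, computed with 1 count added to each value. It was centred on the median over the 13842 genes, which before centring was -0.21. A shift is thus relative to the typical measured mRNA and says nothing on whether engagement as a whole was higher or lower. "Gained" and "lost" mean a centred shift of at least 1 or at most -1, which is 2-fold. With 1 library per stage and fraction there is no replicate, no test and no p-value; the error given with a gene is a counting standard error (SE), which had a median of 0.09 over the genes and covers counting error only.

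The labels held against the stage genes. Of 110 listed first zygotic genes, 77 were at least 2-fold higher in the unfractionated library at 3.5 hpf than at 128-cell and 9 at least 2-fold lower, with summed normalized counts of 257537 at 3.5 hpf and 61360 at 128-cell. The 4 fraction libraries had 55827414 assigned reads in the bound and 64177749 in the unbound fraction at 3.5 hpf, against 51428083 bound and 71646639 unbound at 128-cell. Markers of ovarian follicle, blood, skeletal muscle and liver cells were few among the measured genes. These were 3 of 15 ovarian follicle markers, 2 of 10 blood markers, 1 of 12 skeletal muscle markers and 0 of 15 liver markers, and the follicle list, the highest of the 4, summed to 13063 unfractionated normalized counts at 3.5 hpf and 9567 at 128-cell. The blood list summed to 3874 and 3131, the muscle list to 1267 and 440 and the liver list to 1220 and 223, with 0 markers of the 4 lists at 0 at 3.5 hpf and 1, 3, 1 and 3 at 0 at 128-cell. In the unfractionated library 8 follicle, 4 blood, 6 muscle and 12 liver markers were at least 2-fold higher at 3.5 hpf. At least 2-fold lower were 1, 1, 0 and 0. Most of the follicle sum at 3.5 hpf came from CYP17A1 (6377) and CYP11A1 (5091). The part of these markers in the results was not tested.

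Many maternal mRNAs changed their place between the fractions. Of the 13842 genes, 2970 gained (21.5%), 3050 lost (22.0%) and 7822 did neither. List counts below are to be read against these shares. Those between 5.3 hpf and 16-cell are to be read against 23.8% gained and 22.3% lost over all genes. The middle of the distribution ran from -0.87 to 0.86 (quartiles), with an SD of 1.39 over genes. Without centring the counts would be 2392 gained and 3723 lost, so the balance between the directions, unlike the order of the genes, is set by the centring. A further 1256 genes lay within 0.1 of either threshold. For the 5 genes just above the minimum of 100 counts the shifts ran from -2.01 to 1.60, and for the 5 just below it from -1.23 to 0.51.

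The step from 128-cell to 3.5 hpf was the widest of the 5 steps between neighbouring stages over the same genes. It put 43.5% of the genes past 2-fold in either direction, against 10.2% from egg to 1-cell, 25.6% from 1-cell to 16-cell, 13.3% from 16-cell to 128-cell and 31.0% from 3.5 to 5.3 hpf. The Spearman correlation of the ratio across genes was 0.47 over this step, 0.84 from egg to 1-cell and 0.84 from 16-cell to 128-cell. Neighbouring steps share a stage, and genes are not independent replicates. The scatter of the ratios shows the spread around the diagonal, with gene groups that lie mainly on 1 side of it.

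**Figure D1:**
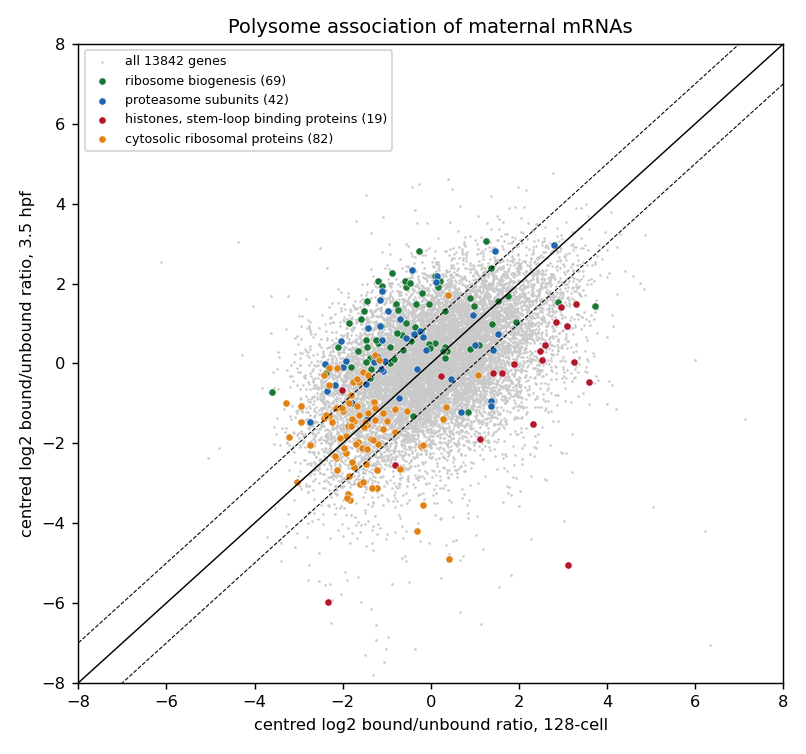
Centred log2 bound over unbound ratio at 3.5 hpf (vertical) against 128-cell (horizontal), 1 grey point per gene for 13842 genes, with 4 gene lists in colour; the solid line is no shift, the dashed lines are 2-fold, and 5 genes lie outside the axes. Ribosome biogenesis genes lie mainly above the diagonal, histones with their stem-loop binding proteins mainly below it, and most cytosolic ribosomal proteins low at both stages.

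Both fractions contributed to the shifts. In the genes that gained, the median log2 difference between 3.5 hpf and 128-cell was 0.69 in the bound and -0.81 in the unbound library. In the genes that lost it was -1.58 in the bound and 0.38 in the unbound library. Over all genes these medians were -0.35 and -0.20. Relative to these all-gene medians, the gaining genes stood at 1.04 bound and -0.61 unbound and the losing genes at -1.22 bound and 0.57 unbound, so in both directions the bound level moved more than the unbound level.

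The amount of mRNA changed little in most of these genes. The unfractionated level stayed within 2-fold in 2118 of the 2970 genes that gained (71.3%) and in 2348 of the 3050 that lost (77.0%), against 75.5% of all genes. Among the 2117 genes whose unfractionated level was at least 2-fold lower at 3.5 hpf, 27.6% gained and 20.3% lost, with a median shift of 0.22. Among the 1271 at least 2-fold higher, 21.1% gained and 21.4% lost, with a median of 0.00. Across all genes the Spearman correlation between the shift and the unfractionated difference was -0.11, given as a description.

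By median, the genes that gained had a low ratio at every earlier stage and those that lost a high one. The 128-cell ratio is part of the shift, so low and high values at that stage follow in part from the choice of genes. Across all genes it correlated with the egg, 1-cell and 16-cell ratios at 0.58, 0.55 and 0.84 (Spearman), so the same holds for those stages. The median centred ratio of the gaining genes was -0.72 in the egg, -0.56 at 1-cell, -0.85 at 16-cell, -1.02 at 128-cell, 0.69 at 3.5 hpf and 0.36 at 5.3 hpf. That of the losing genes was 0.78, 0.62, 0.90, 1.00, -0.85 and -0.22 over the same stages. The 3.5 hpf ratio lay above all 4 earlier stages in 79.1% of the gaining genes (30.4% of all genes) and below all 4 in 87.6% of the losing genes (34.6% of all genes), though the 128-cell and 3.5 hpf values had also defined these groups. The 5.3 hpf ratio lay above all 4 earlier stages in 64.0% of the gaining genes (28.4% of all genes) and below all 4 in 64.5% of the losing genes (33.6% of all genes), and here too 128-cell, one of the 4 stages, had helped to define the groups.

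The same direction appeared in libraries that the shift did not use. Between 5.3 hpf and 16-cell, 1748 of the 2970 genes that gained were again at least 2-fold up in the centred ratio (58.9%, against 23.8% of all genes) and 122 were at least 2-fold down (4.11%). Of the 3050 genes that lost, 1594 were again at least 2-fold down (52.3%, against 22.3% of all genes) and 159 were up (5.21%). Setting 5.3 hpf against 1-cell gave 48.0% of the gaining genes up (22.3% of all genes) and 44.3% of the losing genes down (23.0% of all genes). These sets share the 5.3 hpf libraries with each other and none with the shift. They are still not independent of the choice of genes. The 128-cell ratio, which helped to define the groups, correlated with the 16-cell and 1-cell ratios at 0.84 and 0.55 (Spearman). The ratios also spread less at 5.3 hpf (SD 0.929) than at 16-cell (1.33) or 1-cell (1.2). The same direction can thus follow in part from the selection, and how large that part is was not tested. The plot of these other libraries shows the groups moved apart, with wide overlap.

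**Figure D2:**
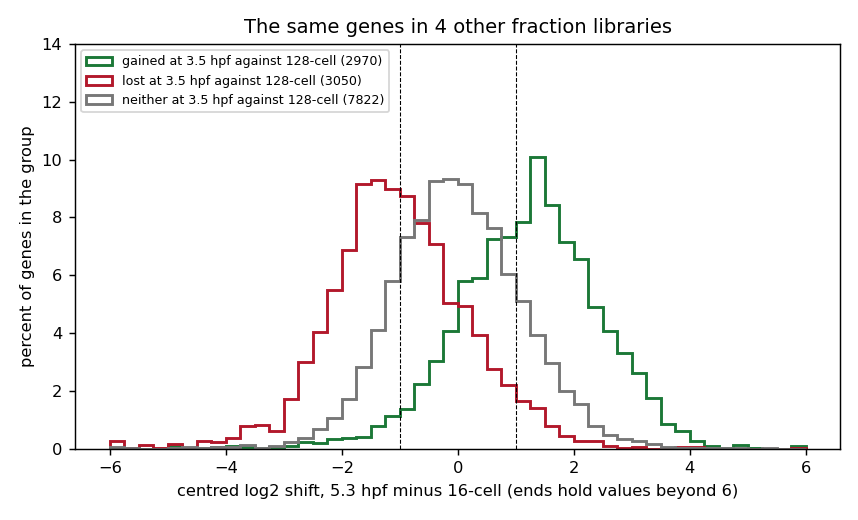
Centred log2 shift between 5.3 hpf and 16-cell (horizontal) for genes that gained, lost or did neither between 3.5 hpf and 128-cell, as the percent of each group (vertical); dashed lines mark 2-fold. None of the 4 fraction libraries plotted was used to choose the groups, but the 16-cell ratio correlates with the 128-cell ratio that was (Spearman 0.84). The median is 1.28 for the genes that gained and -1.06 for those that lost.

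The highest median shift of any list was that of ribosome biogenesis, the nucleolar machinery that transcribes, cuts, modifies and assembles ribosomal RNA. Of 69 measured genes of this list, 47 gained and 3 lost, with a median shift of 1.53. In 43 of the 47 the unfractionated level stayed within 2-fold. The bound level was higher by a median of 0.49 on the log2 scale and the unbound level lower by 0.78. The median ratio was -0.97, -0.74, -0.66 and -0.56 from egg to 128-cell, then 0.81 at 3.5 hpf and 1.18 at 5.3 hpf. Between 5.3 hpf and 16-cell, 52 of the 69 gained and 2 lost.

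LTV1 (ENSDARG00000008490.8), an export and assembly factor of the small ribosomal subunit, had 10722 bound and 2771 unbound normalized counts at 3.5 hpf, against 3785 bound and 8318 unbound at 128-cell. Its unfractionated level was 4077 at 3.5 hpf and 6049 at 128-cell, and its shift was 3.29 ± 0.04 (counting SE, here and below). Bound and unbound thus traded places while the unfractionated level was lower. NOP56 (ENSDARG00000012820.11), a core protein of the snoRNPs that methylate ribosomal RNA, had 64272 bound and 9849 unbound counts at 3.5 hpf, against 15256 bound and 17517 unbound at 128-cell, a shift of 3.11 ± 0.02. TSR3, which modifies 18S ribosomal RNA, shifted by 3.18 ± 0.06, and RRN3, the initiation factor that links RNA polymerase I to ribosomal DNA promoters, by 3.09 ± 0.05.

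The 3 exceptions, named after their values were seen, were ddx10 at -2.25 ± 0.05, WDR75 at -2.04 and nol11 at -1.32. The helicase mRNA ddx10 had 8040 bound and 3198 unbound counts at 3.5 hpf, against 12116 bound and 879 unbound at 128-cell, so it left a very high ratio rather than reaching a low one. The DEAD and DEAH box helicases, RNA-remodelling ATPases, split along the same line. Of the 11 that belong to the biogenesis list 8 gained and 1 lost, with a median of 1.87, and of the 38 others 8 gained and 9 lost, with a median of 0.15.

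Proteins of the finished ribosome did not move with its assembly factors. Of 82 cytosolic ribosomal protein genes, 21 gained and 18 lost, near the shares over all genes, with a median shift of -0.06. Their median ratio stayed low, at -1.17, -1.53, -1.39, -1.66 and -1.50 from egg to 3.5 hpf, and then reached -0.07 at 5.3 hpf. Between 5.3 hpf and 16-cell 61 of the 82 gained and 0 lost. The large and the small subunit were alike at 3.5 hpf, with 11 gains and 11 losses in 47 genes and 8 gains and 7 losses in 32.

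The widest ribosomal protein shifts were losses. rpl7a (ENSDARG00000019230.9) had 913 bound and 29333 unbound counts at 3.5 hpf, against 8335 bound and 5981 unbound at 128-cell, a shift of -5.28 ± 0.05 while its unfractionated level was 4059 and 5322. RPL37 shifted by -3.86 ± 0.16 and RPL39 by -3.34 ± 0.11, and both were back at -0.23 and -0.16 in centred ratio at 5.3 hpf. For rpl7a the unbound level at 3.5 hpf was thus far above the unfractionated one. Whether reads were split with similar sequences in counting was not tested, so single members are uncertain.

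Cytosolic translation factors gained more often than they lost. Of 64 initiation factors and their regulators 24 gained and 9 lost, with a median of 0.47. Many of the gains were in factors that deliver the initiator tRNA and in eIF2B, which recharges eIF2. This group was picked out after its values were seen. Of 11 genes for eIF2, eIF2A, eIF2B and eIF2D, 9 gained and 1 lost, with a median of 2.06. EIF2D (ENSDARG00000012929.5) had 3544 bound and 1060 unbound counts at 3.5 hpf, against 1384 bound and 3345 unbound at 128-cell, a shift of 3.22 ± 0.06. EIF2S3B, the gamma subunit of eIF2, shifted by 2.69 ± 0.03.

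Within eIF2B, the exchange factor that recharges eIF2, EIF2B2 shifted by 2.54, EIF2B5 by 2.22 and EIF2B4 by 1.80, while EIF2B1 shifted by -1.77 as its unfractionated level reached 1437 at 3.5 hpf, against 201 at 128-cell. These subunits were named after their values were seen. Of 16 genes for eIF3, the scaffold of the initiation complex, 7 gained and 2 lost, with a median of 0.88, led by EIF3K at 2.60 ± 0.08. The eIF4E binding proteins, which hold back cap-dependent initiation, stood on the other side. Of 4 measured, 0 gained and 2 lost, EIF4EBP3 at -2.15 and EIF4EBP2 at -2.13.

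The enzymes that charge tRNAs gained without a loss. Of 23 aminoacyl-tRNA synthetase genes and their scaffold proteins 11 gained and 0 lost, with a median of 0.96, and the unfractionated level stayed within 2-fold in 10 of the 11. FARSA, the alpha subunit of phenylalanyl-tRNA synthetase, had 4853 bound and 2737 unbound counts at 3.5 hpf, against 1466 bound and 3932 unbound at 128-cell, a shift of 2.45 ± 0.06. GARS1, glycyl-tRNA synthetase, shifted by 2.23 ± 0.04. Of 16 elongation and release factors 4 gained and 0 lost, with a median of 0.52. ETF1, the release factor that reads stop codons, shifted by 1.93 ± 0.02, with 42872 bound counts at 3.5 hpf and 20550 at 128-cell.

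Proteasome subunits gained to a similar extent. The proteasome is the barrel-shaped protease with a regulatory cap that degrades ubiquitin-tagged proteins. Of 42 genes listed as subunits 25 gained and 4 lost, with a median of 1.18, and the unfractionated level stayed within 2-fold in 21 of the 25. The core particle (8 of 16 gained, 1 lost) and the regulatory particle (15 of 24 gained, 3 lost) both took part. The median ratio was -0.85 at 128-cell, 0.34 at 3.5 hpf and 1.62 at 5.3 hpf. Taken as bound over unfractionated, which called 17.7% of all genes in each direction, 17 gained and 3 lost, with a median of 0.59.

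PSMB7 (ENSDARG00000037962.6), a catalytic core subunit, had 1939 bound and 590 unbound counts at 3.5 hpf, against 900 bound and 1865 unbound at 128-cell, a shift of 2.97 ± 0.08. PSMD7, a lid subunit, shifted by 2.80 ± 0.03, SEM1, the smallest lid component, by 2.76 and PSMC1, an ATPase of the base, by 2.63 ± 0.07. The 4 that lost, named after their values were seen, were PSMD5 at -2.41, PSMC4 at -2.29, 1 of the 2 PSMD11 genes at -1.86 and PSMB4 at -1.05. PSMD5 is an assembly chaperone of the base rather than a subunit, and was counted above with the regulatory particle by its symbol. PSMC4 had 3852 bound and 7993 unbound counts at 3.5 hpf, against 8811 bound and 3251 unbound at 128-cell, and its centred ratio was 2.17 at 5.3 hpf. Its loss was thus seen at 3.5 hpf and not at 5.3 hpf.

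Other genes of protein turnover did not follow the proteasome. Of 13 proteasome assembly factors and regulators 3 gained and 4 lost, with a median of -0.36. Of 60 ubiquitin-like proteins and their E1 and E2 enzymes 7 gained and 21 lost, with a median of -0.58. The conjugating enzymes ube2al at -4.17 ± 0.04, ube2ib, which is a SUMO E2, at -3.95 ± 0.06, ube2d2l at -3.89 and ube2d1b at -3.70 led the losses.

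The modifier genes sumo2b, sumo3b, sumo3a and sumo2a, picked out after their values were seen, lost as well. The gene sumo3b had 16578 bound and 10059 unbound counts at 3.5 hpf, against 35240 bound and 6866 unbound at 128-cell, a shift of -1.43 ± 0.02 although its unfractionated level was higher, at 19158 at 3.5 hpf and 12494 at 128-cell. The shift was -1.55 for sumo2b, -1.42 for sumo3a and -1.08 for sumo2a. Between 5.3 hpf and 16-cell all 4 were down past 2-fold. Set between 5.3 hpf and 128-cell, however, sumo2a changed sign, so its loss at 3.5 hpf was not held at 5.3 hpf.

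**Figure D3:**
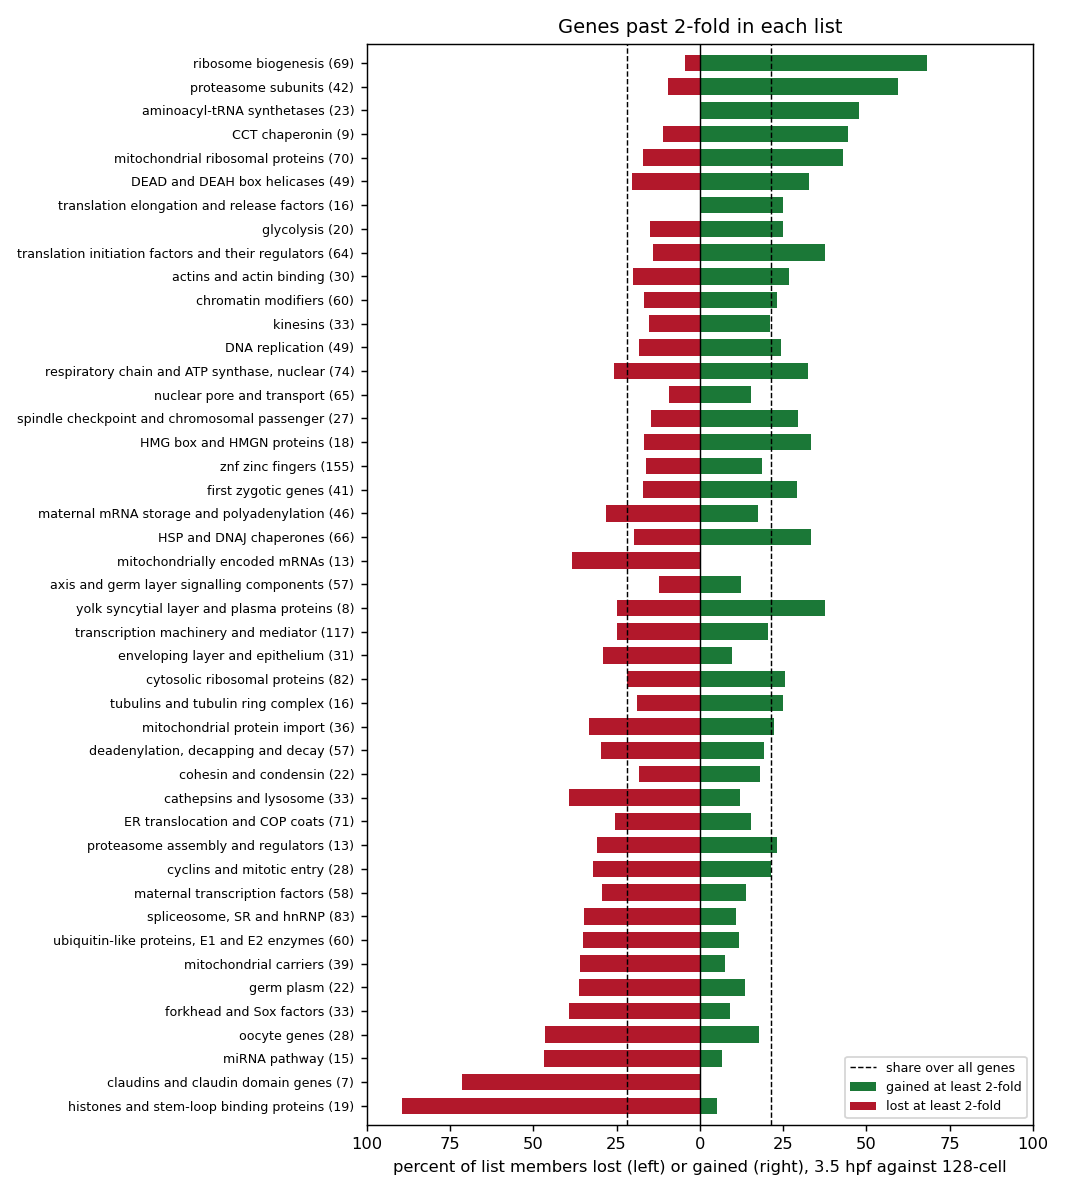
Percent of the measured members of each gene list (number in brackets) that gained (right, green) or lost (left, red) at least 2-fold between 3.5 hpf and 128-cell, ordered by median shift; dashed lines are the shares over all 13842 genes, 21.5% and 22.0%. Ribosome biogenesis and the proteasome reach far past the line on the right and fall short of it on the left, and histones do the reverse.

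Mitochondrial lists divided. Of 70 mitochondrial ribosomal protein genes 30 gained and 12 lost, with a median of 0.77, but their amount also changed, with a median unfractionated difference of -0.90 on the log2 scale. MRPS33, of the small mitochondrial subunit, shifted by 3.81 ± 0.09, with 1347 bound and 703 unbound counts at 3.5 hpf, against 578 bound and 3691 unbound at 128-cell. MRPL43 shifted by -3.40 ± 0.33. Respiratory chain and ATP synthase subunits encoded in the nucleus had 24 gains (32.4%) and 19 losses (25.7%) among 74 genes, with a median of 0.26. The shares over all genes were 21.5% and 22.0%. This list held one of the widest gains, ndufa5 of complex I at 5.35 ± 0.30.

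The mitochondrial carriers, which pass metabolites across the inner membrane, had 3 gains and 14 losses among 39 genes, with a median of -0.60. Of the 13 mRNAs encoded in the mitochondrial genome, which are translated inside the organelle and not on the polysomes of the cytoplasm, 0 gained and 5 lost, with a median of 0.07. MT-CO1, a subunit of cytochrome c oxidase, had 41666 bound and 200571 unbound counts at 3.5 hpf, against 87473 bound and 159753 unbound at 128-cell. The median ratio of these mRNAs was -0.01 in the egg, -0.54 at 1-cell, -0.65 at 16-cell and -1.55 at 128-cell. They lay mainly in the unbound fraction at the late stages, at -1.94 at 3.5 hpf and -3.05 at 5.3 hpf. In the egg MT-CO1 had 143990 bound and 128221 unbound counts. The bound libraries thus also held mRNA that is not on cytoplasmic polysomes, and the losses of these genes cannot be read as a change of engagement.

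Of the chaperones, the CCT ring, which folds actin and tubulin, had 4 gains and 1 loss among 9 genes, with a median of 0.92. CCT4 shifted by 2.69 ± 0.06 and CCT3 by 2.47, and CCT8, the exception, by -1.74. The wider list of heat shock and DNAJ proteins had 22 gains (33.3%) and 13 losses (19.7%) among 66 genes, with a median of 0.15. Its highest value was that of HSP90AB1, an abundant cytosolic HSP90, at 2.62, with 83639 bound and 73474 unbound counts at 3.5 hpf, against 22213 bound and 104109 unbound at 128-cell.

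Histone mRNAs had the lowest median of any list. Of 17 histone genes 0 gained and 16 lost, with a median of -2.12, and the remaining gene, h2ax1, was at -0.52. Their median ratio was 0.99 in the egg, 0.62 at 1-cell, 2.31 at 16-cell, 2.52 at 128-cell, -0.02 at 3.5 hpf and 1.66 at 5.3 hpf, so of the last 3 stages 3.5 hpf had the low value. Between 5.3 hpf and 16-cell 1 of the 17 was up and 6 were down.

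The H2A gene hist1h2a2 (ENSDARG00000103015.1) had 142 bound and 5076 unbound counts at 3.5 hpf, against 14938 bound and 1638 unbound at 128-cell, a shift of -8.13 ± 0.12. Its centred ratio was 3.12 at 128-cell, -5.05 at 3.5 hpf and 1.73 at 5.3 hpf. The variant h2af1al shifted by -4.03 ± 0.04, h2ax by -3.80 ± 0.03 and the H3 gene hist2h3c by -3.18 ± 0.05.

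The fractions and the unfractionated library disagreed for several histones, and which of them is at fault was not tested. For 6 of the 19 genes of the list with the stem-loop binding proteins, the unfractionated level lay outside both fractions by more than 2-fold, against 2.58% of all genes. h2ax had 8362 bound and 25789 unbound counts at 3.5 hpf but 2422 in the unfractionated library. Taken as bound over unfractionated, 0 of the 19 gained and 8 lost (17.7% of all genes in each direction), with a median of -0.76, and h2ax and hist2h3c turned to 0.0761 and 0.18. Histone genes have many near-identical copies, so single members are uncertain. Of the stem-loop binding proteins, which hold histone mRNA ends, slbp shifted by 1.39 and slbp2 by -1.70, with 548 bound and 3456 unbound counts for slbp2 at 3.5 hpf, against 6983 bound and 11714 unbound at 128-cell. Both were named after their values were seen.

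Cell cycle mRNAs split by cyclin. Of 5 genes for A and B type cyclins, which drive entry into mitosis and were set apart after their values were seen, 4 lost and 1 gained. CCNB1 (ENSDARG00000051923.7) had 34610 bound and 21802 unbound counts at 3.5 hpf, against 148941 bound and 10438 unbound at 128-cell, a shift of -2.96 ± 0.02. Its unfractionated level was 43903 at 3.5 hpf and 42429 at 128-cell. The amount of cyclin B1 mRNA thus hardly differed while its bound level was far lower at 3.5 hpf. CCNB2 shifted by -3.35 ± 0.02, CCNA1 by -2.92 ± 0.02 and CCNA2 by -1.13, and ccnb3 gained at 2.73 ± 0.07.

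fbxo43, an inhibitor of the anaphase-promoting complex in eggs, shifted by -4.64 ± 0.08 while its unfractionated level was 675 at 3.5 hpf, against 6160 at 128-cell. CCNE2, the E type cyclin that drives S phase entry, shifted by 3.32 ± 0.17 with an unfractionated level of 1433 at 3.5 hpf, against 279 at 128-cell. Over the list of 28 cyclins and mitotic entry genes, 6 gained and 9 lost, with a median of -0.41. Among replication genes 12 of 49 gained (24.5%) and 9 lost (18.4%), near the shares over all genes. Of the 6 subunits of the MCM2 to MCM7 helicase, set apart after their values were seen, 4 gained, with a median of 1.61 over the 6 and MCM5 at 2.20 ± 0.03.

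Of the miRNA pathway list 1 of 15 genes gained and 7 lost, and the losses were in its effectors, a group set apart after its values were seen. In fish, miR-430 made at genome activation directs Argonaute and TNRC6 proteins to repress and clear maternal mRNAs. Of 8 Argonaute and TNRC6 genes 7 lost and 0 gained, with a median of -1.43, and the remaining gene, tnrc6c2, was at -0.83. Between 5.3 hpf and 16-cell 7 of the 8 were down past 2-fold.

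TNRC6A (ENSDARG00000079688.3) had 20005 bound and 37489 unbound counts at 3.5 hpf, against 49371 bound and 18724 unbound at 128-cell, a shift of -2.10 ± 0.02. Its unfractionated level was 22711 at 3.5 hpf and 18903 at 128-cell. AGO2 shifted by -2.03 ± 0.03, AGO3 by -1.74, AGO4 by -1.46 and AGO1 by -1.26. The 7 other genes of the list, for miRNA processing, export and control, had 1 gain and 0 losses. The gain was LIN28A, which blocks processing of let-7, at 2.07 ± 0.04.

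**Figure D4:**
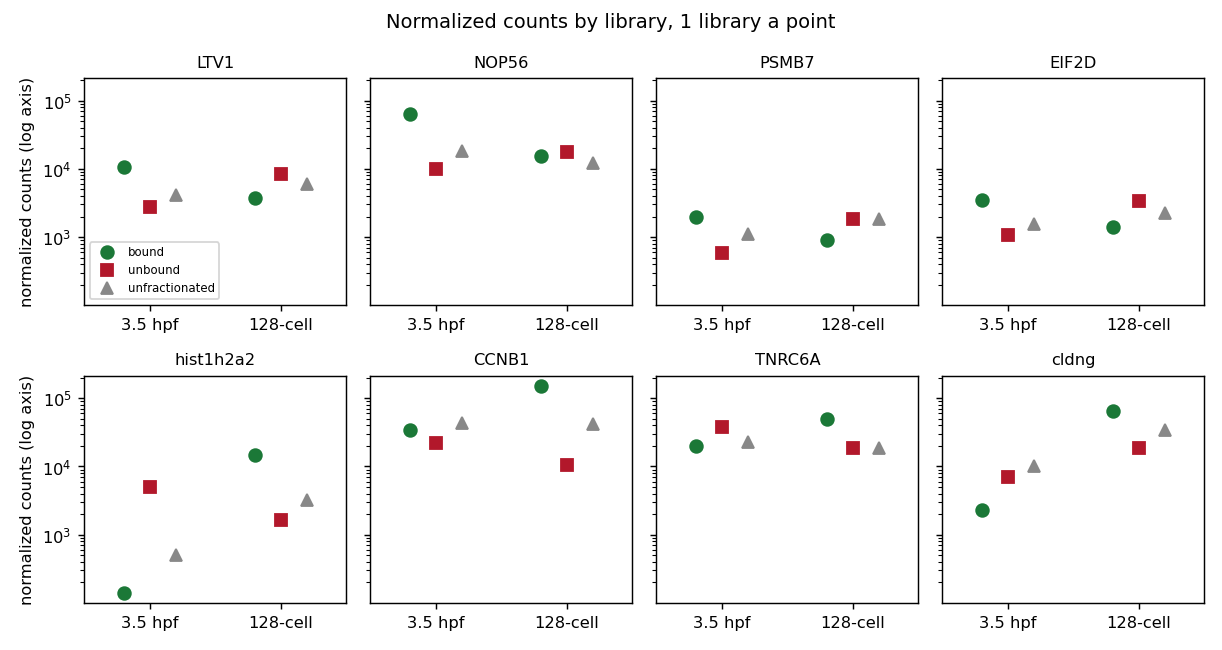
Normalized counts (log axis) in the bound, unbound and unfractionated libraries of 3.5 hpf (left) and 128-cell (right) for 8 genes, 1 library per point and no replicates. The bound point lies above the unbound one only at 3.5 hpf in the 4 upper genes and only at 128-cell in hist1h2a2, TNRC6A and cldng; in CCNB1 it lies above at both stages, by far more at 128-cell.

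Other regulators of maternal mRNA were mixed. Of 57 genes for deadenylation, decapping and decay 11 gained (19.3%) and 17 lost (29.8%), with a median of -0.18. The shares over all genes were 21.5% and 22.0%. Of 5 catalytic deadenylases of the CCR4-NOT complex 3 lost, CNOT8 at -2.92 ± 0.03, CNOT7 at -2.36 and CNOT6L at -2.09, while CNOT6 was at -0.51 and cnot6b at -0.61. Set between 5.3 hpf and 16-cell, 2 of the 5 were down past 2-fold. UPF3B, of nonsense-mediated decay, gained at 2.46. CNOT8 had 10028 bound and 7197 unbound counts at 3.5 hpf, against 42745 bound and 3507 unbound at 128-cell. Of 46 genes for storage and polyadenylation 8 gained (17.4%) and 13 lost (28.3%), with a median of 0.16. CPEB1, which binds the cytoplasmic polyadenylation element, shifted by -2.65 ± 0.05 and the stabilizing protein elavl1a by -2.96 ± 0.03. PUM3, placed on this list as a Pumilio family member, shifted by 3.15, and a role of it in mRNA storage was not tested.

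Oocyte and germ plasm mRNAs lost more often than they gained. Of 28 oocyte genes 5 gained and 13 lost, with a median of -0.75 and a range from -7.60 to 8.69. Both ends of the range were zona pellucida genes, a group set apart after its values were seen. Of these 8 genes 1 gained and 2 lost, with a median of -0.45. Neither end is a well measured value. The low end, zp2.1, had 0 counts in the bound 3.5 hpf library and stood at -6.04 against a floor of 3 reads. The gene at the high end was not among those with at least 200 fraction counts at both stages. GDF9, an oocyte growth factor, had 228 bound and 1195 unbound counts at 3.5 hpf, against 2526 bound and 1502 unbound at 128-cell, a shift of -2.93 ± 0.11. cth1, a zinc finger protein of the tristetraprolin family, shifted by -3.03 ± 0.03. Of 22 germ plasm genes 3 gained and 8 lost, with a median of -0.64, led by TDRD6, a Tudor protein that organizes germ plasm, at -3.26 ± 0.03.

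Maternal transcription factors, some of which open the zygotic genome, had 8 gains and 17 losses among 58 genes, with a median of -0.48, and 14 of the 17 losses came with an unfractionated level within 2-fold. sox19b (ENSDARG00000040266.6) had 5632 bound and 13981 unbound counts at 3.5 hpf, against 30014 bound and 11149 unbound at 128-cell, a shift of -2.53 ± 0.03. TBPL2, the TBP-related factor of oocytes, had 13.7 bound and 463 unbound counts at 3.5 hpf, against 878 bound and 1322 unbound at 128-cell, a shift of -4.19 ± 0.39. TBP and EOMES each shifted by -2.53. The other pluripotency factors of this set, chosen after their values were seen, were close to the threshold, nanog at -1.09 and pou5f3 at -1.14, and both kept a higher bound than unbound level at 3.5 hpf (58346 and 31626 for nanog).

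Among gains in the list, tcf3a was at 2.62 ± 0.07, creb1a at 2.53 and VSX1 at 2.72 ± 0.57. The forkhead and Sox factors, which overlap the list, had 3 gains and 13 losses among 33 genes, with a median of -0.69. Of the 41 first zygotic genes with enough mRNA at 128-cell to be measured, 12 gained and 7 lost, with a median of 0.16. Their unfractionated level was higher by a median of 0.84 on the log2 scale, so much of their mRNA at 3.5 hpf was not present at 128-cell. HES6 shifted by 3.57 ± 0.30 and BAMBI by 2.96 ± 0.13, and snai1a by -2.77 ± 0.04.

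Splicing factor mRNAs stayed rich in polysomes but less so. Of 83 genes of the spliceosome and of SR and hnRNP proteins 9 gained and 29 lost, with a median of -0.55, and their median ratio was 2.24 at 128-cell, 1.82 at 3.5 hpf and 1.50 at 5.3 hpf. SF3B5 and SF3B6, small subunits of the SF3B complex that binds the branch point, shifted by -3.11 ± 0.08 and -2.94 ± 0.07. The unfractionated level of SF3B6 was 2558 at 3.5 hpf and 1062 at 128-cell, so more of this mRNA was present and less of it was bound.

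Epithelial mRNAs were mixed. Of 31 genes of the enveloping layer and epithelium 3 gained and 9 lost, with a median of -0.04 and a median ratio of 0.66 at 3.5 hpf. Of 7 claudins and claudin domain genes, which seal tight junctions, 5 lost and 0 gained, with a median of -1.53, which became -0.53 over the 25 such genes that a minimum of 10 admits. The amount of these mRNAs also changed. The unfractionated level stayed within 2-fold in only 1 of the 5 that lost, and its median difference over the 7 was -1.06 on the log2 scale. cldng (ENSDARG00000003701.8) had 2287 bound and 6988 unbound counts at 3.5 hpf, against 64092 bound and 18860 unbound at 128-cell, a shift of -3.17 ± 0.03, and its unfractionated level was 10009 at 3.5 hpf and 33758 at 128-cell. cldn7b shifted by -2.69 ± 0.03 with an unfractionated level of 12057 at 3.5 hpf, against 5278 at 128-cell. The adherens junction gene cdh1, E-cadherin, chosen after its value was seen, shifted by -2.24 ± 0.02 but kept 37565 bound and 18168 unbound counts at 3.5 hpf. In the other direction, pkp3a, a plakophilin of desmosomes, shifted by 4.17 ± 0.25.

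Genes of the lysosome lost without its proton pump. Of the 33 listed genes 4 gained and 13 lost. The 20 outside the V-ATPase had 2 gains and 10 losses, with a median of -1.06, and the 13 V-ATPase subunits 2 gains and 3 losses, with a median of 0.21. LAMP2, a lysosomal membrane protein, had 15730 bound and 42978 unbound counts at 3.5 hpf, against 67647 bound and 24141 unbound at 128-cell, a shift of -2.73 ± 0.02, and lamp1b shifted by -2.31 ± 0.04. This division of the list was made after its values were seen.

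Lists near the shares over all genes included the transcription machinery and mediator (24 gains and 29 losses among 117, median -0.02), zinc finger genes named znf (29 and 25 among 155, median 0.16), chromatin modifiers (14 and 10 among 60, median 0.35), and cohesin and condensin (4 and 4 among 22, median -0.21). Signalling components of axis and germ layers had 7 gains and 7 losses among 57, which is 12.3% in each direction and below the 21.5% and 22.0% over all genes, with a median of 0.04. Single signalling genes still moved far. The Vg1 homologue gdf3 shifted by -2.28 ± 0.03, and its Nodal partner ndr1 by 2.27 ± 0.24. gdf3 had 6055 bound and 9488 unbound counts at 3.5 hpf, against 21701 bound and 6054 unbound at 128-cell, at a nearly equal unfractionated level of 12792 and 12174.

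**Figure D5:**
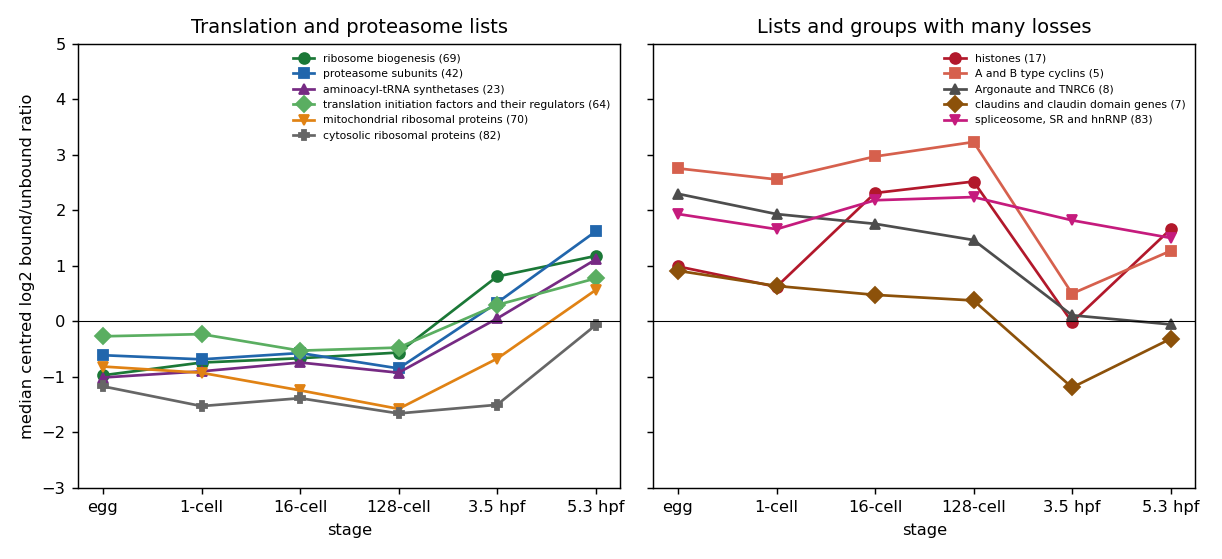
Median centred log2 bound over unbound ratio (vertical) of gene lists and parts of lists at the 6 stages in order (horizontal), with the number of genes in brackets. Ribosome biogenesis reaches 0.81 at 3.5 hpf while cytosolic ribosomal proteins stay at -1.50 until they reach -0.07 at 5.3 hpf; histones are low at 3.5 hpf only among the last 3 stages, whereas Argonaute with TNRC6 stays low at 5.3 hpf.

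Among genes with at least 200 fraction counts at both stages, the widest loss was that of AKAP6 (ENSDARG00000077295.5), a kinase-anchoring protein. It had 1058 bound and 151007 unbound counts at 3.5 hpf, against 75498 bound and 888 unbound at 128-cell, a shift of -13.36 ± 0.06. Its unfractionated level was 53552 at 3.5 hpf and 41877 at 128-cell. The centred ratio was 6.16 in the egg, 6.30 at 1-cell, 5.09 at 16-cell, 6.34 at 128-cell, -7.05 at 3.5 hpf and -0.20 at 5.3 hpf, so all 4 early libraries placed this mRNA almost wholly in the bound fraction and the 3.5 hpf libraries almost wholly in the unbound one.

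UNC80, a channel subunit, was similar at lower level, with 46.0 bound and 614 unbound counts at 3.5 hpf, against 1168 bound and 33.0 unbound at 128-cell. The chitinase-family gene chia.6 shifted by -5.78 ± 0.06, but its 127053 unbound counts at 3.5 hpf were far above its unfractionated level of 17112. For 4 of the 12 widest losses the bound 3.5 hpf library held 0 reads, where a floor of 3 reads allows up to 2.93 normalized counts. Against that floor zp2.1, an egg coat protein, was at least 65.8-fold lower in the centred ratio, and the uncharacterized genes si:dkeyp-98a7.4, si:dkeyp-98a7.7 and si:ch211-154a22.8 at least 292-fold, 43.3-fold and 39.9-fold.

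The widest gain under the same rule was that of the uncharacterized gene si:ch211-255g12.8, at 7.45 ± 0.15. It had 3228 bound and 421 unbound counts at 3.5 hpf, against 157 bound and 3126 unbound at 128-cell. Its centred ratio was -4.37 at 128-cell, 3.04 at 3.5 hpf and -3.04 at 5.3 hpf. ADRA1B, an adrenergic receptor, had a similar course, with a shift of 5.52 ± 0.24 and a ratio of -4.05 at 128-cell and -3.12 at 5.3 hpf. HGS, an endosomal sorting protein, had 9596 bound and 1969 unbound counts at 3.5 hpf, against 1987 bound and 9762 unbound at 128-cell, a shift of 4.79 ± 0.05, and stayed at 1.95 at 5.3 hpf. Among the rest of the 12 widest gains, the centred ratio at 5.3 hpf was negative for plrdgb (-3.62), htra2-8 (-2.19) and spata6l (-2.09). It was also negative for DCT (-1.33), ushbp1 (-1.10) and epha7 (-0.31). It was positive for ndufa5 (2.23), HTRA2 (0.65) and PAPPA2 (0.12). A negative ratio at 5.3 hpf was not always a full return to the 128-cell level. The 128-cell ratio was -4.28 for spata6l and -2.51 for ushbp1, so both were still higher at 5.3 hpf. It was -0.43 for epha7, close to its 5.3 hpf value. For spata6l and epha7 the unfractionated level lay outside both fractions by more than 2-fold. At 3.5 hpf spata6l had 12038 bound and 11136 unbound counts but 47789 in the unfractionated library. At 128-cell epha7 had 4124 bound and 5305 unbound counts but 455 in the unfractionated library. Which library is at fault was not tested, so both gains are uncertain. For plrdgb (-3.23), htra2-8 (-1.48) and DCT (-1.09) the 128-cell ratio was above that at 5.3 hpf, so these gains were not held. The htra2-8 values are uncertain, since it had only 10.3 unbound counts at 3.5 hpf. At 16-cell it had 0 counts in both fractions but 129 in the unfractionated library.

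Short mRNAs lost more often. For 5385 genes whose values matched 1 transcript, length could be read from the transcript files. Of 211 with at most 500 nucleotides 45.5% lost and 15.2% gained, with a median of -0.67. Of 647 between 500 and 1000 nucleotides 30.0% lost and 21.0% gained, of 1830 between 1000 and 2000 nucleotides 23.0% lost and 24.7% gained, and of 287 over 6000 nucleotides 12.2% lost and 9.76% gained. The part of length in the list results was not tested.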

How the data were processed

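Per the labels, pooled zebrafish embryos gave 1 bound, 1 unbound and 1 unfractionated library at each of 6 stages, from rRNA-depleted RNA with stranded libraries. Per the submitters' processing notes, Salmon 0.6.0, DESeq2, STAR 2.4.2a, GSNAP, Cufflinks 2.2.1, bcl2fastq 2.16.10 and cutadapt 1.9.1 were among the tools, and the build was GRCz10. The gene table deposited by the authors holds a normalized signal (normalized counts). Multiplied by 1 factor per library, the values of 13698 of 27015 genes came out as whole reads in all 18 libraries (tolerance 0.001 reads). The transcript files deposited by the authors hold estimated counts, used here for depth, for transcript length and for the counting SE. The 18 libraries had 30671815 to 71646639 assigned reads. Normalization set each library to a common scale, so a change shared by most mRNAs of a fraction does not appear, and shifts were centred as well. Near-identical genes could share reads.

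Shifts were computed from the gene table in Python 3.11.15 with numpy 2.4.6, pandas 2.3.3 and scipy 1.17.1, with a pseudocount of 1 and a minimum of 100, and the code was tested on simulated data. TMM factors came from edgeR 4.0.16 in R 4.3.3, as an alternative scaling only. Genes were matched to 49 lists by symbol. 22547 genes of the table had a symbol, many in human style. Lists of fewer than 3 measured genes were given no median. By rule the text draws on genes with a symbol and at least 200 counts in bound plus unbound at both stages: the 12 highest and 12 lowest shifts, up to 4 genes per list past 2-fold, and the 6 highest and 6 lowest among those with an unfractionated level within 2-fold. Others are said to be chosen after their values were seen, which also holds for the further A and B type cyclins, Argonautes, deadenylases other than CNOT8, tnrc6c2, h2ax1, hist2h3c, CPEB1, creb1a, TBP, EOMES and the eIF4E binding proteins. The members and lists were chosen with earlier results of these data known. No sequence or gene position is given, since no genome of the files' build was used here, and 1 gene is not reported here.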

Additional observations from a re-analysis of the deposited data

How the results depend on the processing

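Counts of genes past 2-fold follow the number of genes measured. With a minimum of 10 in place of 100, 4788 of 20085 genes gained and 5088 lost; with a minimum of 500, 1896 of 8924 gained and 1929 lost; over the 5385 genes that match 1 transcript, a choice made after the data were seen, 1162 gained and 1173 lost. The other 9 alternatives gave 2392 to 3542 gains and 2456 to 3723 losses. The median before centring, -0.21 as deposited, was -0.0604 after scaling to the totals of the gene table, -0.60 after scaling to the 4 control entries, and turned to 0.0918 with TMM, so no direction of engagement as a whole can be given. Of the 46 list medians 34 kept their sign with 5.3 hpf as the late stage, 37 with the mean of 4 early stages and 38 not centred. With a minimum of 500 it was 39 of 45, so the direction of many list medians depends on the setting. None of the 4 past 2-fold (ribosome biogenesis, proteasome, histones, claudins) changed sign under the 12 alternatives, but not all stayed past 2-fold. With bound over unfractionated the proteasome was at 0.59 and histones at -0.76, with 5.3 hpf as the late stage histones at -0.76, with a minimum of 10 claudins at -0.53, and not centred the proteasome at 0.98. Of 113 named genes that were checked, 109 past 2-fold, 2 changed sign with bound over unfractionated (h2ax to 0.0761, hist2h3c to 0.18). With 5.3 hpf as the late stage 9 of the 109 changed sign: PSMC4 to 0.88, PSMB4 to 0.93, sumo2a to 0.0755, CNOT6L to 0.16, zp2.1 to 0.61, si:dkeyp-98a7.7 to 1.48, MRPL43 to 0.74, RPL37 to 0.18 and RPL39 to 0.10. Some of the widest gains, outside the genes checked, also had a lower centred ratio at 5.3 hpf than at 128-cell. These were plrdgb (-3.62 and -3.23), htra2-8 (-2.19 and -1.48) and DCT (-1.33 and -1.09). The cause of these changes of sign was not tested. No paired analysis was possible because the labels give no replicate numbers and each stage and fraction has 1 library. Depth limits 15 genes that hold 0 counts in a fraction library.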

Other observations

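Outside the comparisons above, 576 of the genes measured were assembled loci without an Ensembl gene. Of these 140 gained and 146 lost, with a median shift of -0.02, close to the shares over all genes. Of 65 nuclear pore and transport genes 10 gained and 6 lost, fewer in both directions than the 21.5% and 22.0% over all genes, with a median of 0.22.

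Against the same 21.5% and 22.0% over all genes, of 20 glycolysis genes 5 gained (25.0%) and 3 lost (15.0%), with a median of 0.50. Of 27 genes of the spindle checkpoint and chromosomal passenger complex 8 gained (29.6%) and 4 lost (14.8%), with a median of 0.21, and of 33 kinesins 7 gained (21.2%) and 5 lost (15.2%), with a median of 0.28. Genes of the ER translocation machinery and COP coats, which carry secretory proteins, had 11 gains (15.5%) and 18 losses (25.4%) among 71, with a median of -0.34. Genes of mitochondrial protein import had 8 gains (22.2%) and 12 losses (33.3%) among 36, with a median of -0.11.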
